A study of Mus musculus with 8 samples.

Results

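Semaphorins, plexins and neuropilins form a ligand and receptor family that the deposited table covers with 31 of its 34432 genes: 20 semaphorins, 9 plexins and 2 neuropilins. Members were taken by symbol alone (Sema followed by a digit, Plxn, Nrp1 or Nrp2). Expression was measured in untreated mouse macrophages (M0) that had been differentiated in vitro out of bone marrow and harvested at day 7. The double knockout (DKO, 4 libraries) carried Cdk8 flox/flox with Vav-iCre and a null Cdk19 (Cdk19null), and the VavCre control (4 libraries) carried the recombinase alone. Both groups therefore share the Vav-driven Cre, whose activity is known from the blood-forming lineage; which kind of null allele Cdk19 carries is not stated in the labels. Cdk8 and Cdk19 encode paralogous kinases of the Mediator complex, and the comparison asks which transcripts differ when both are targeted. The labels give neither the age of the mice nor the origin of the 4 libraries of a group (different mice, different dishes), and every p-value is therefore set against library-to-library spread that may be technical.

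Semaphorins are secreted or membrane-bound proteins first known for steering growing axons. Plexins are their receptors, with a cytoplasmic part that acts on small GTPases and so on the cytoskeleton and on adhesion. Neuropilins lack such a signalling part; they hold class 3 semaphorins for A-type plexins and also bind vascular endothelial growth factors. In myeloid cells the family is known for effects on migration, on contact with T cells and on osteoclast formation.

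Values are the authors' normalized read counts, which in each library are whole reads divided by 1 size factor, and fold changes are DKO over VavCre. Reads assigned to the genes of the table, recovered from these values, numbered 17856715 to 21353207 per library. Cdk19 averaged 372.8 ± 25.8 in DKO and 1452 ± 189 in VavCre (SD, n = 4 each; exact two-sided permutation p = 0.0286, the smallest that 4 against 4 allows). Cdk8 kept 79.2% of its VavCre level in DKO, but its total includes exons outside the floxed part and does not check the deletion (limma log2 -0.35, adjusted p = 0.0374, a call lost in 11 of 19 alternatives; exact two-sided permutation p = 0.0571). DKO libraries 1 and 2, and likewise 3 and 4, were closer to each other (chi-square per gene 8.01 and 9.08) than libraries across these pairs (19.2 to 26.4). Among VavCre libraries the values ran from 9.29 to 38.2, the largest between libraries 1 and 4. With each DKO pair averaged, 1 member of the family was called higher and 3 lower, and the range of calls over all genes is given with the alternatives below. The macrophage label fits the markers: Csf1r, Adgre1 and Cd68 were among 14 macrophage markers that all passed the filter, of which 8 rose and 5 fell. These 14 summed to 361222 to 384257 in DKO and 398731 to 433313 in VavCre. Beside this and the marker sets that follow, 22.9% of all tested genes were called higher and 23.8% lower. Cell division markers summed to 2343 to 2562 in DKO and 17862 to 19593 in VavCre, and all 10 fell. Monocyte markers summed to 667.9 to 801.1 in DKO and 2805 to 3327 in VavCre, and 5 of 9 tested fell. Neutrophil markers summed to 1303 to 1598 in DKO and 2648 to 4344 in VavCre, and 9 of 11 tested fell. Dendritic cell markers summed to 1400 to 1563 in DKO and 962.4 to 1188 in VavCre, and of 4 tested 2 rose and 0 fell. Osteoclast markers overlapped (1643 to 1836 in DKO, 1567 to 1712 in VavCre), and of 6 tested 2 rose and 2 fell. Stromal fibroblast markers overlapped as well (119.9 to 309.7 in DKO, 296.1 to 370.6 in VavCre), and 2 of 3 tested fell. The part of these marker sets in the results that follow was not tested, and in bulk libraries fewer cells of a type and less RNA per cell cannot be told apart.

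Of the 31 members, 17 passed the low-value filter (10 or more normalized counts in 4 or more libraries). Among these, 3 were higher and 3 lower in DKO (limma on log2(value + 1), Benjamini-Hochberg adjusted p under 0.05 over 11675 genes). Over all tested genes 46.6% were called, 22.9% higher and 23.8% lower, so 6 of 17 is no more than the table gives in general. edgeR and DESeq2 on the recovered reads called 46.1% and 48.6% of all genes; edgeR called 2 members higher and 3 lower, and DESeq2 3 higher and 3 lower. Of the 17 tested members 3 were called with a change of at least 2-fold, beside 10.9% of all tested genes. The tested members had a median log2 fold change of -0.0045, beside 0.0051 for all tested genes. Sema4b rose, and Sema6b, Sema4d and Plxna4 fell. In these 4 of the 17 tested members the groups did not overlap, against 42.9% of all tested genes without overlap (21.2% with DKO above and 21.7% with DKO below). Plxna1 and Plxnd1 were called higher close to the threshold, with overlapping groups.

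**Figure D1:**
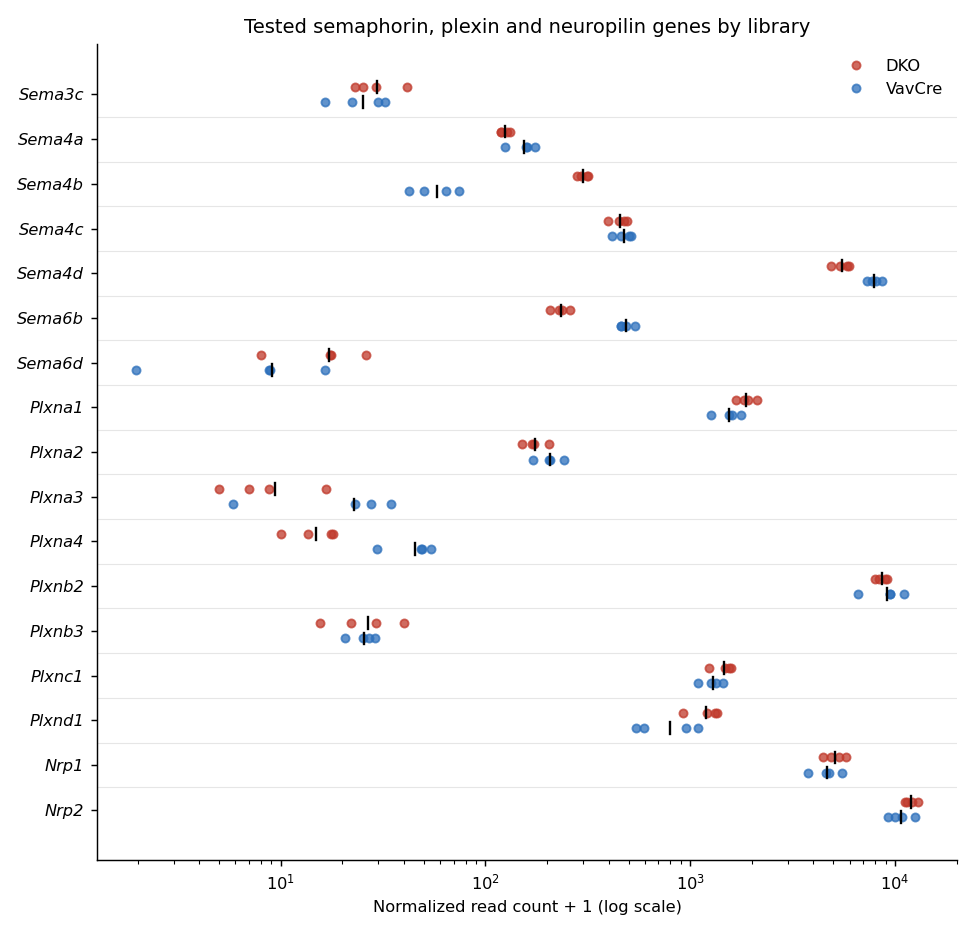
Normalized read count + 1 of the 17 tested members in each library (log axis), DKO in red above VavCre in blue, with black ticks at group means (n = 4 each). Sema4b, Sema4d, Sema6b and Plxna4 show separate groups, while both neuropilins and Plxnb2 overlap.

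The abundant members were few. Counts were divided by the exon length merged over annotated transcripts, so that genes can be compared as normalized reads per kilobase. On that scale Plxnb2 stood at 1114 ± 66.7 in DKO and 1184 ± 241 in VavCre, Nrp2 at 1008 ± 68.4 in DKO and 901.6 ± 120 in VavCre, and Sema4d at 718.5 ± 61.6 in DKO and 1033 ± 73.0 in VavCre (SD, n = 4 each). Nrp1 followed with 522.2 ± 58.7 in DKO and 475.8 ± 75 in VavCre. Plxna1, Plxnc1 and Plxnd1 lay between 163.9 and 207.8 in DKO and between 108.9 and 170.6 in VavCre, and Sema4c and Sema6b at 98.6 and 58.4 in DKO and at 102.6 and 121.9 in VavCre. In VavCre, Plxnb2, Sema4d and Nrp2 do not differ beyond their spread from their neighbours in this order. In DKO, Plxnb2 and Nrp2 differ by less than the sum of their SDs, and Sema4d lies below both.

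Sema4d took most of the semaphorin signal in both groups. Its share of the summed level per kilobase of all 20 semaphorins was 74.5% ± 1.10 in DKO and 79.0% ± 1.44 in VavCre (SD, n = 4 each). The summed semaphorin level itself was 963.6 ± 69.0 in DKO and 1307 ± 72.2 in VavCre, and the sum over plexins was 1677 ± 56.1 in DKO and 1639 ± 194 in VavCre. Sema4b held 5.51% ± 0.337 of the semaphorin level in DKO and 0.774% ± 0.209 in VavCre, whereas Sema6b held 6.10% ± 0.889 in DKO and 9.36% ± 1.05 in VavCre. Sema4c held 10.2% ± 0.748 in DKO and 7.84% ± 0.394 in VavCre, although its own level did not pass the test (below). In both groups Sema4d was thus the main semaphorin transcript. The shares of Sema4b did not overlap between groups, nor did those of Sema4d, Sema6b and Sema4c. Shares within a library depend on each other, so a share can move without its gene.

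**Figure D2:**
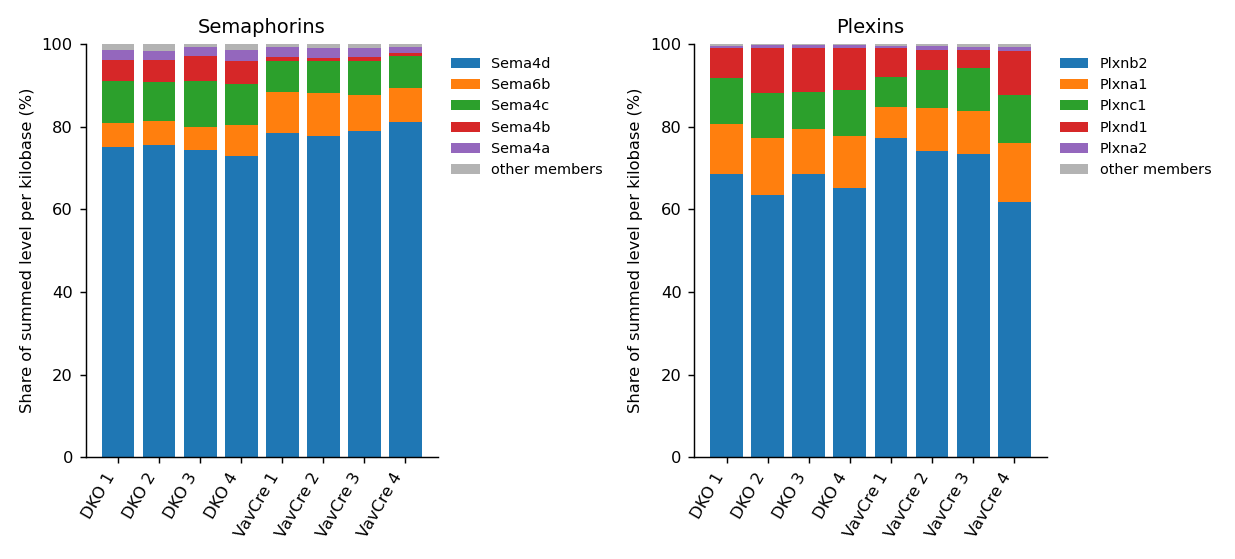
Share of the summed level per kilobase (%) that each gene takes among the 20 semaphorins (left) and the 9 plexins (right), 1 bar per library, DKO libraries left of VavCre libraries. Sema4d and Plxnb2 fill most of every bar, and the Sema4b segment is wider in the DKO bars (5.12% to 5.90%, against 0.529% to 0.977% in VavCre).

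Sema4b, which encodes a transmembrane class 4 semaphorin, had the largest change of the tested members. Its gene (ENSMUSG00000030539) lies on chromosome 7, 80186841 to 80226527, plus strand, mm10. It had 291.3, 311.6, 315.1 and 278.7 normalized counts in DKO libraries 1 to 4, against 62.9, 49.3, 73.2 and 41.5 in VavCre libraries 1 to 4. Every DKO library was above every VavCre library, and the DKO values lay close together. The means of 299.2 ± 17.2 in DKO and 56.7 ± 14.1 in VavCre differ 5.27-fold (log2 2.41, SE 0.18, adjusted p = 7.83e-07). This log2 fold change was above that of 99.3% of all tested genes. The value stayed between 2.27 and 2.54 in each of the 19 alternatives tried.

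Sema6b, a transmembrane class 6 semaphorin known as a ligand of plexin-A4, fell. Its gene (ENSMUSG00000001227) lies on chromosome 17, 56123085 to 56140343, minus strand, mm10. Values were 228.1, 236.2, 206.1 and 257.3 in DKO libraries 1 to 4, against 486.5, 535.6, 457.2 and 456.1 in VavCre libraries 1 to 4. The highest DKO library lay well below the lowest VavCre library. The log2 fold change was -1.06 (SE 0.11, adjusted p = 8.70e-06), with means of 231.9 ± 21.2 in DKO and 483.8 ± 37.2 in VavCre.

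Sema4d, also called CD100, is a transmembrane class 4 semaphorin that can be shed from the cell surface and that binds plexin-B1, plexin-B2 and CD72. Its gene (ENSMUSG00000021451) lies on chromosome 13, 51685529 to 51793747, minus strand, mm10. It had 5819, 5945, 5407 and 4897 normalized counts in DKO libraries 1 to 4, against 7324, 7723, 8044 and 8650 in VavCre libraries 1 to 4. The groups did not overlap, although DKO libraries 3 and 4 were lower than DKO libraries 1 and 2. The log2 fold change was -0.53 (SE 0.08, adjusted p = 0.000150), a smaller change than that of Sema6b on a much larger level. Sema4d is also known from lymphocytes, whose markers summed to 46.8 to 65.3 in DKO and 120.5 to 146.0 in VavCre. The T-cell genes Cd3e, Cd3d, Cd3g and Trbc2 and the natural killer cell gene Ncr1 were at 0 in all 8 libraries.

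The 250 bases before the RefSeq starts of these 3 semaphorins (GRCm38.p6, the mm10 assembly) are shown because these are the called semaphorins and they moved in opposite directions. The start furthest upstream in the RefSeq table is given for each, with the second start of Sema4b beside its first, in the direction of transcription. The Sema4d window lies inside the gene coordinates given above, since the GENCODE gene begins further upstream than any RefSeq start in the table. The gene totals do not show which start was used. Capitals mark motif matches on either strand. The GC box was searched as GGGCGG. For the E box the letters were CACGTG. The box named after its letters was searched as CCAAT. An AP-1 site was searched as TGANTCA. The letters of the TATA box were TATAAA.
Sema4b first start, chr7:80186620-80186869, plus strand: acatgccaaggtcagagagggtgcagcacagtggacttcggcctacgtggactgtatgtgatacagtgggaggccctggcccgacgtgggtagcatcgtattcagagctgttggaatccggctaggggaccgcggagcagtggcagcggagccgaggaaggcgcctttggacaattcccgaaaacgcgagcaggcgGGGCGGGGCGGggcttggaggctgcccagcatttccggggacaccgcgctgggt
Sema4b second start, chr7:80198338-80198587, plus strand: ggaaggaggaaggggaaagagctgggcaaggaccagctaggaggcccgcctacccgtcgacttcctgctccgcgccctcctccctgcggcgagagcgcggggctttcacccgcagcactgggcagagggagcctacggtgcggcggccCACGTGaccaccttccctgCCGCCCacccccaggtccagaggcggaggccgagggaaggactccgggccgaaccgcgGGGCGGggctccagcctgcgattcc
Sema6b, chr17:56140344-56140593, minus strand: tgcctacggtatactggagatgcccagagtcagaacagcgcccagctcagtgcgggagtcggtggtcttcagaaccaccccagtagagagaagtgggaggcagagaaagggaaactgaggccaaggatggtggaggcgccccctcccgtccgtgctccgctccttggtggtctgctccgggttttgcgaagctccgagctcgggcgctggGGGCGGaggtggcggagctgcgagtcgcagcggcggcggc
Sema4d, chr13:51756684-51756933, minus strand: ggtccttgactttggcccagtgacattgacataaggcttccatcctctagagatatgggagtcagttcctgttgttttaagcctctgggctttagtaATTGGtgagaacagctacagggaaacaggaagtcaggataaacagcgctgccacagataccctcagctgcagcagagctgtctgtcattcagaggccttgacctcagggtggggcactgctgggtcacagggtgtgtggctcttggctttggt
Both Sema4b windows held 2 GC boxes, which overlap by 1 base at the first start, and the second also held 1 E box. The Sema6b window held 1 GC box and the Sema4d window 1 CCAAT box, read here as ATTGG. Of 32851 RefSeq promoter windows of the same length, 32.7% held a GC box, 6.02% an E box, 33.8% a CCAAT box, 6.75% an AP-1 site and 12.4% a TATA box. The RefSeq starts not shown differ from these: the other Sema6b window held 1 GC box, 1 CCAAT box and 1 AP-1 site, 1 of the other Sema4d windows held 1 AP-1 site, and the remaining one 1 GC box and 2 CCAAT boxes. The motifs therefore depend on the start chosen and set no difference between the genes; they are letters in a window, and nothing was measured at them. RefSeq windows were found for 26 of the 31 members.

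The other semaphorins that passed the filter did not pass the test. Sema4c, a ligand of plexin-B2, averaged 452.7 ± 40.4 in DKO and 471.5 ± 43.9 in VavCre (adjusted p = 0.678), and the 95% interval of its log2 fold change, -0.29 to 0.17, bounds the difference. Sema4a, a co-stimulator of T cells that binds plexin-D1 and B-type plexins and, in mouse, Tim-2, averaged 123.4 ± 5.98 in DKO and 153.3 ± 21.3 in VavCre (adjusted p = 0.116). VavCre library 4, at 123.4, was the only one of its group inside the DKO range of 118.0 to 130.1, and without it Sema4a was called lower (log2 -0.40, limma adjusted p = 0.0434). That library is the overlapping one, so the larger difference without it follows from the omission. The secreted Sema3c averaged 28.7 ± 8.10 in DKO and 24.3 ± 7.29 in VavCre (adjusted p = 0.581). Sema6d, which in mouse dendritic cells and osteoclasts is a ligand of plexin-A1, averaged 16.3 ± 7.40 in DKO and 8.02 ± 5.95 in VavCre (adjusted p = 0.173). Both rested on few reads, 214 for Sema3c and 97 for Sema6d over the 8 libraries, and the interval for Sema6d ran from -0.29 to 2.63 on the log2 scale.

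The remaining 14 members stayed under the filter. Sema3d and Sema5b had 0 reads in every library, which by counting error alone allows up to 3 reads in a library. Sema7a, the membrane-anchored ligand of plexin-C1, had 6.0 to 19.4 in DKO and 7.73 to 14.7 in VavCre, from 84 reads in all. Sema3f, a ligand of neuropilin-2, had 0.971, 30.2, 0 and 0.974 in DKO libraries 1 to 4, against 0.983, 10.6, 13.3 and 8.68 in VavCre libraries 1 to 4, so a single DKO library held nearly all reads of its group. Sema6c reached 13.6 in DKO and 12.2 in VavCre. The other 9 (Sema3a, Sema3b, Sema3e, Sema3g, Sema4f, Sema4g, Sema5a, Sema6a and Plxnb1) had 20 reads or fewer each over the 8 libraries. Sema3a, the ligand of neuropilin-1, had 3 reads, Sema3e, which binds plexin-D1 without a neuropilin, 20 reads, and Plxnb1, a receptor of Sema4d, 6 reads, all 6 in VavCre. At this depth no difference could be read from these genes.

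Among the receptors, Plxna4 fell. Plexin-A4 is a receptor of class 6 semaphorins and, with neuropilin-1, of Sema3a, and in mouse macrophages it is known to promote Toll-like receptor signalling. Its gene (ENSMUSG00000029765) lies on chromosome 6, 32144268 to 32588192, minus strand, mm10. It had 12.6, 9.05, 17 and 16.6 normalized counts in DKO libraries 1 to 4, against 28.5, 53.2, 47.7 and 48.2 in VavCre libraries 1 to 4. The groups did not overlap, but the level was low, with 233 reads over all libraries. The log2 fold change was -1.62 (SE 0.33, adjusted p = 0.00194). Its known ligand Sema6b, described above, was lower in the same libraries. Plxna3 had 7.77, 6.03, 4.0 and 15.6 in DKO, against 33.4, 4.83, 26.6 and 22.2 in VavCre (adjusted p = 0.142). VavCre library 2 alone lay inside the DKO range, and without it Plxna3 was called lower (log2 -1.73, limma adjusted p = 0.0181). Leaving out the overlapping library widens the difference by itself, so that call shows only how far the result depends on 1 library.

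**Figure D3:**
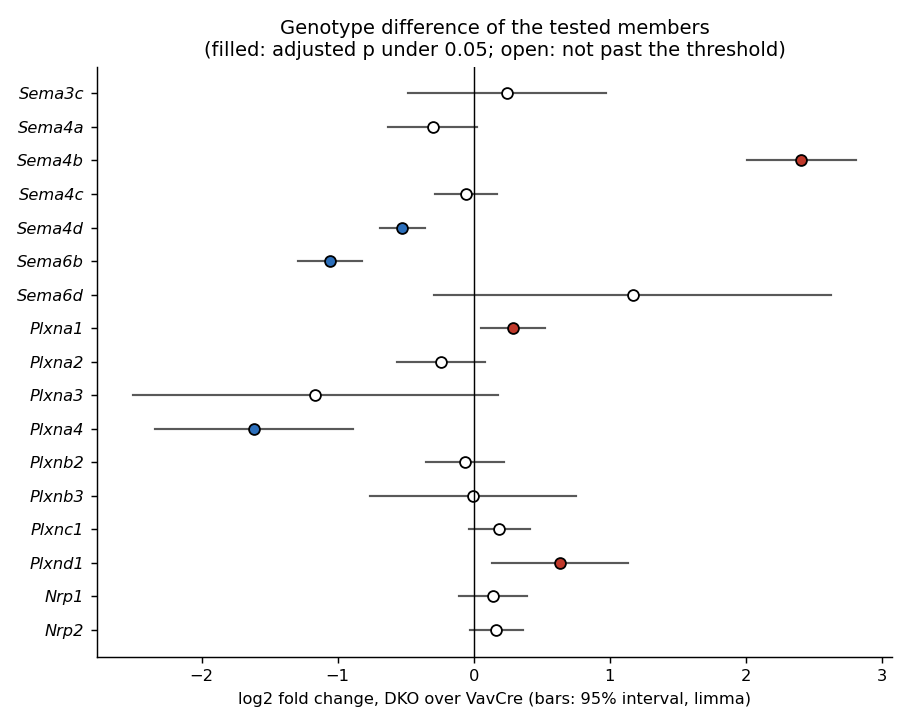
Log2 fold change, DKO over VavCre, of the 17 tested members with 95% intervals from limma (n = 4 libraries per group). Filled points passed the threshold: Sema4b at 2.41, Plxnd1 at 0.64 and Plxna1 at 0.29 above 0, Sema4d at -0.53, Sema6b at -1.06 and Plxna4 at -1.62 below it.

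Plxna1 and Plxnd1 were called higher in DKO, and neither call was stable. Plexin-A1 is a partner of neuropilin-1 and, in mouse dendritic cells and osteoclasts, of Trem2 and its adaptor Tyrobp. Plxna1 had 1912, 2125, 1664 and 1825 normalized counts in DKO libraries 1 to 4, against 1262, 1543, 1597 and 1777 in VavCre libraries 1 to 4. VavCre library 4 lay inside the DKO range. The log2 fold change was 0.29 (SE 0.11, adjusted p = 0.0424), and 12 of 19 alternatives lost the call (adjusted p from 0.0133 to 0.120 over all 19), among them those without DKO library 1, 2 or 4 or VavCre library 1, 2 or 3. The gene Gm26811 overlaps its exons on the opposite strand, as Plxna4os3 does those of Plxna4, and whether counting used strand was not stated.

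Plexin-D1, a receptor of Sema3e and Sema4a, is best known from blood vessels. Plxnd1 had 920.4, 1346, 1318 and 1202 normalized counts in DKO libraries 1 to 4, against 949.4, 594.6, 542.7 and 1093 in VavCre libraries 1 to 4. VavCre libraries 1 and 4 lay among the DKO values and libraries 2 and 3 far below them. The log2 fold change was 0.64 (SE 0.22, adjusted p = 0.0396), and 9 of 19 alternatives lost the call (adjusted p up to 0.103), among them those without DKO library 2, 3 or 4 or VavCre library 2 or 3. Without VavCre libraries 1 and 4 the value was 1.06; this alternative was chosen after seeing the data and removes the libraries that lay among the DKO values, so its larger size follows from the choice. Of 10 endothelial markers 4 were tested, 1 rose and 0 fell, beside 22.9% higher and 23.8% lower among all tested genes. The 10 summed to 230.1 to 315.1 in DKO and 174.0 to 349.6 in VavCre, and 3 of them (Cldn5, Emcn and Tek) were at 0 in all libraries. Their part in the Plxnd1 values was not tested.

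The most abundant receptors did not pass the test. Plexin-B2, a receptor of Sema4c and Sema4d, had 9143, 8316, 8907 and 8029 normalized counts of Plxnb2 in DKO libraries 1 to 4, against 11040, 9432, 9497 and 6583 in VavCre libraries 1 to 4 (log2 -0.06, adjusted p = 0.713). The DKO values lay inside the wider VavCre range. Plxnc1, the receptor of Sema7a, averaged 1462 ± 158 in DKO and 1285 ± 149 in VavCre (log2 0.19, 95% interval -0.04 to 0.41, adjusted p = 0.158), and was called higher without DKO library 3 (log2 0.27, adjusted p = 0.0479). DKO library 3 was the lowest of its group for Plxnc1, so the larger difference without it follows from the omission. Plxna2 averaged 173.2 ± 22.8 in DKO and 204.9 ± 28.5 in VavCre (adjusted p = 0.207). Plxnb3 averaged 25.7 ± 10.4 in DKO and 24.4 ± 3.5 in VavCre (adjusted p = 0.994).

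Both neuropilins were highly expressed and neither was called. Nrp1 had 5311, 5794, 4455 and 4879 normalized counts in DKO libraries 1 to 4, against 3739, 4601, 4753 and 5529 in VavCre libraries 1 to 4 (log2 0.14, 95% interval -0.11 to 0.39, adjusted p = 0.336). Nrp2 had 12114, 13003, 11205 and 11423 in DKO libraries 1 to 4, against 9259, 10049, 10820 and 12582 in VavCre libraries 1 to 4 (log2 0.17, 95% interval -0.03 to 0.36, adjusted p = 0.148). In both genes VavCre library 1 was the lowest and library 4 the highest of its group, and DKO libraries 1 and 2 were above 3 and 4. The ratio of Nrp1 to Nrp2 per kilobase was 0.481 to 0.539 in DKO and 0.489 to 0.554 in VavCre, a narrow range beside the spread of either gene.

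The VavCre libraries differed together in some of these receptor genes. Nrp1, Nrp2 and Plxna1 were lowest in VavCre library 1 and highest in VavCre library 4, and Plxnb2 was highest in VavCre library 1 and lowest in VavCre library 4. Plxnd1 did not follow: it had 949.4 and 1093 in VavCre libraries 1 and 4, against 594.6 and 542.7 in libraries 2 and 3. Plxnc1 was lowest in VavCre library 1 but highest in library 3. Neutrophil markers summed to 4344 in VavCre library 1 and to 2648 to 3254 in VavCre libraries 2 to 4, and their part in this spread was not tested. Without VavCre library 4, Nrp2 was called higher (log2 0.25, adjusted p = 0.0142) and Plxnb2 lower (log2 -0.21, adjusted p = 0.0316), so 1 control library decides both. Sema4b, Sema4d and Sema6b kept their calls in all 19 alternatives, these included.

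**Figure D4:**
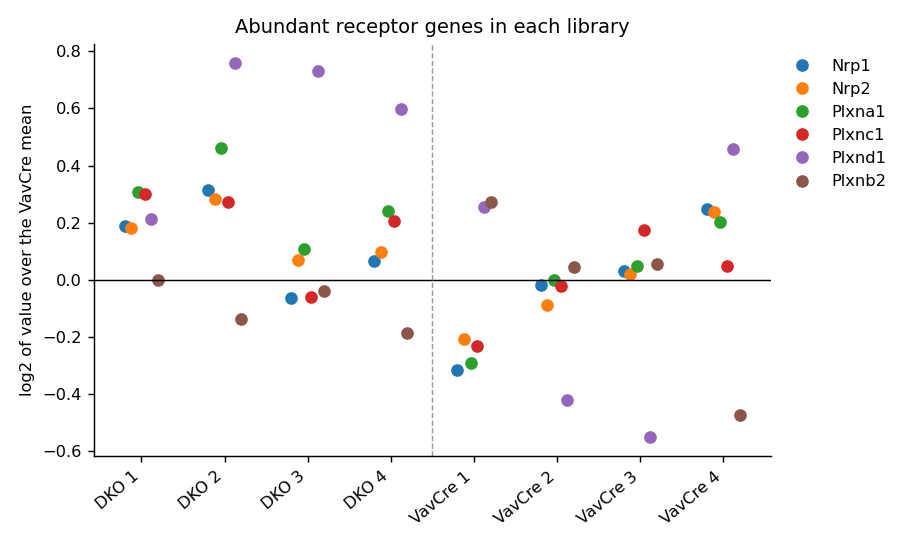
Log2 of the normalized count over the VavCre mean for 6 abundant receptor genes in each library, DKO libraries left of the dashed line. In VavCre library 1 Nrp1, Nrp2, Plxna1 and Plxnc1 lie below 0 and Plxnb2 above it, and in VavCre library 4 the first 4 lie above 0 and Plxnb2 below it. Plxnd1 lies above 0 in both of these libraries.

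Partners of the family outside the rule were read from a list of 20 receptors, co-receptors and adaptors, of which 13 were tested, 3 rose and 5 fell (median log2 fold change -0.39), beside 22.9% higher and 23.8% lower among all tested genes. Cd72, the lymphocyte receptor of Sema4d that is also present on macrophages, averaged 12542 ± 999 in DKO and 14812 ± 749 in VavCre and fell (log2 -0.24, adjusted p = 0.0126). Itgb1, the integrin subunit with which Sema7a interacts, fell (log2 -0.36, adjusted p = 0.00225). Met, a receptor tyrosine kinase that can pair with B-type plexins, averaged 61.6 ± 6.80 in DKO and 108.9 ± 30.4 in VavCre and fell (log2 -0.78, adjusted p = 0.0130), as did Cd44 (log2 -1.01, adjusted p = 1.63e-06) and the proteoglycan gene Cspg4 (log2 -3.02, adjusted p = 3.76e-06). Erbb2 and Mst1r, which can also pair with B-type plexins, had no read in any library, nor had Timd2, which encodes Tim-2. The calls of Cd72, Tyrobp, Met and the signalling gene Rras were lost when DKO libraries were averaged in pairs (adjusted p up to 0.0811), and that of Met also without VavCre libraries 1 and 4.

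Of those that rose, Gipc1, which binds the cytoplasmic end of neuropilin-1, had a log2 fold change of 0.33 (adjusted p = 0.00715). Tyrobp, the adaptor of Trem2, averaged 15164 ± 169 in DKO and 12520 ± 1558 in VavCre (log2 0.29, adjusted p = 0.0142). Trem2 was called at the threshold (log2 0.17, adjusted p = 0.0478), and 13 of 19 alternatives lost that call, including those without any 1 of the DKO libraries or without VavCre library 3 or 4. Kdr, the vascular growth factor receptor that pairs with neuropilin-1, averaged 77.4 ± 9.21 in DKO and 101.4 ± 5.22 in VavCre (adjusted p = 0.0709). It was not called, although its groups did not overlap and 1 of 19 alternatives called it lower.

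Growth factors that neuropilins bind, or whose receptors they assist, were read from a list of their own. Of 9 listed, 7 were tested, 4 rose and 3 fell (median log2 fold change 0.39), beside 22.9% higher and 23.8% lower among all tested genes. Vegfa had 1007, 942.8, 984.3 and 868.3 normalized counts in DKO libraries 1 to 4, against 437.3, 442.8, 491.6 and 342.3 in VavCre libraries 1 to 4 and rose (log2 1.16, SE 0.11, adjusted p = 5.70e-06). Vegfb, a second member of that family, rose as well (log2 0.76, adjusted p = 0.000270). Vegfc, a lymphatic growth factor that binds neuropilin-2, fell: it had 1.94, 1.01, 0 and 0 in DKO libraries 1 to 4, against 32.4, 41.6, 30.0 and 19.3 in VavCre libraries 1 to 4 (limma adjusted p = 9.48e-05), and no fold is given because DKO held 3 reads in all. Vegfc passed the low-value filter through the VavCre libraries alone, so the filter set its direction beforehand. Its place among the 3 that fell is to be read with that limit. Pdgfb (log2 -0.93, adjusted p = 2.52e-07) and Tgfb1 (log2 -0.27, adjusted p = 0.00285) fell, and Hgf, the ligand of Met, rose (log2 0.72, adjusted p = 0.00863) with overlapping groups. Pdgfa averaged 519.0 ± 100 in DKO and 390.2 ± 20.1 in VavCre (adjusted p = 0.0273), and 7 of 19 alternatives lost its call, including those without DKO library 3 or 4 or VavCre library 3 or 4.

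Of 38 listed signalling and cytoskeletal genes downstream of plexins, 34 were tested, 7 rose and 9 fell (median log2 fold change -0.06). These 16 of 34 are close to the 46.6% called among all tested genes. The Rnd GTPases, which bind plexin cytoplasmic parts, split. Rnd3 had 54.4, 50.3, 47.0 and 59.4 normalized counts in DKO libraries 1 to 4, against 265.4, 240.7, 275.2 and 304.7 in VavCre libraries 1 to 4 and fell (log2 -2.34, SE 0.15, adjusted p = 1.79e-07). Rnd1 averaged 17.3 ± 7.65 in DKO and 62.7 ± 14.7 in VavCre and fell (log2 -1.87, adjusted p = 0.000885), whereas Rnd2 averaged 233.9 ± 27.5 in DKO and 107.2 ± 31.7 in VavCre and rose (log2 1.15, adjusted p = 0.000439). The groups of each Rnd gene did not overlap.

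Plexins carry a domain that inactivates R-Ras and Rap GTPases. Rap1a (log2 -0.49, adjusted p = 0.000113) and Rasa1, a Ras GTPase-activating protein (log2 -0.61, adjusted p = 9.85e-05), fell, while Rap1b, the close paralog of Rap1a, rose (log2 0.19, adjusted p = 0.00986; 3 of 19 alternatives lost the call, with adjusted p up to 0.159), as did Rras, the gene of R-Ras (log2 0.37, adjusted p = 0.0125). Pak1, a kinase activated by Rac, fell (log2 -1.50, adjusted p = 1.06e-07), and Fes, a kinase that binds plexin-A1, fell (log2 -0.44, adjusted p = 0.000334). Ssh1, a phosphatase that activates cofilin, rose (log2 0.74, adjusted p = 0.000181), as did Rhod (log2 0.59, adjusted p = 0.00279). Rac1 averaged 11310 ± 191 in DKO and 12315 ± 373 in VavCre (adjusted p = 0.0678). It was not called, although its groups did not overlap and 2 of 19 alternatives called it lower.

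**Figure D5:**
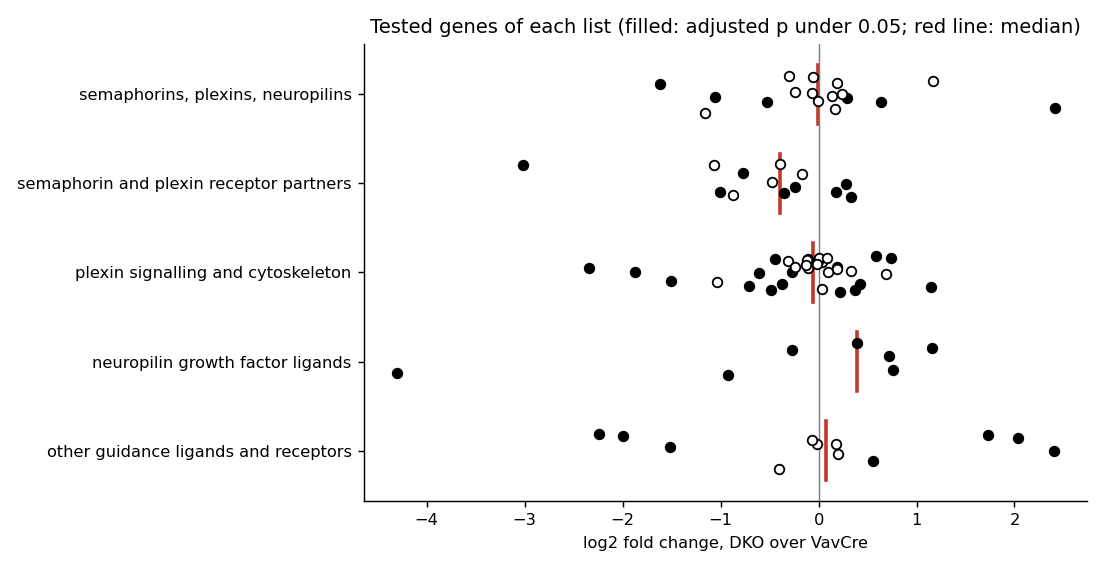
Log2 fold change, DKO over VavCre, of the tested genes of the family and of 4 related lists, with filled points past the adjusted threshold and red lines at list medians (-0.0045 for the family, -0.39 for partners, -0.06 for signalling, 0.39 for growth factors, 0.08 for other guidance genes). Each list holds genes on both sides of 0.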

How the data were processed

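Polyadenylated RNA of 8 libraries was sequenced as read pairs of 150 bases, per the labels' protocols. The submitters' processing notes name Salmon 1.4.0, DESeq2 and the build mm10; annotation release, filters and strandedness: not given in the sources used here. The deposited values are a signal: in each library 100% of the non-zero values are whole reads divided by 1 size factor (0.901 to 1.04), within a tolerance of 0.01 reads. Counts of whole reads assigned to genes (17856715 to 21353207 per library) were recovered by undoing that division, and were used for depth and for edgeR and DESeq2 as alternatives. Reads that were not assigned to a gene of the table are not part of this depth. Counting intervals and floors cover counting error only.

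Samples were grouped by title. The 11675 genes that reached 10 in 4 or more libraries entered limma 3.58.1 (R 4.3.3) on the scale log2(value + 1) (trend and robust, two-sided, genotype as the only term), with Benjamini-Hochberg adjustment over all of them and a threshold of 0.05. Fold changes on that scale understate changes of low genes. The filter counts libraries of either group, so a low gene can pass through the group where it is high alone. The direction of such a gene is then set beforehand. Where levels are compared between genes, means were divided by exon length merged over transcripts in GENCODE M21, which can exceed the length of the transcripts used. The code was tested on simulated reads. Alternatives were 2 other pseudocounts, no filter and a filter of 50, limma without trend and robust, quantile normalization, a replicate block, edgeR 4.0.16, DESeq2 1.42.0, each library left out, and DKO libraries averaged in pairs, because libraries 1 and 2 (chi-square per gene 8.01) and 3 and 4 (9.08) were closer than across these pairs (19.2 to 26.4).

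The members, lists and alternatives were chosen with earlier results of these data known. All family members were accounted for; from each pathway list up to 6 genes with the smallest adjusted p were named, with partners of described members; Unc5a was named after its values were seen.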

Additional observations from a re-analysis of the deposited data

Results flagged for a closer look

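Among the family, its related lists, Cdk8 and Cdk19, 181 groups of 4 libraries held a value of at least 10, and in 7 of them a library stood far from the rest of its group (Dixon's ratio past its 95% critical value), where chance flags about 1 in 20. Sema3f stood at 30.2 in DKO library 2, with the other DKO libraries at 0.974 or less. Flt1, a receptor of vascular growth factors, stood at 345.0 in VavCre library 1, and Rnd2 at 154.7 in VavCre library 2, still below every DKO library. Rras2 stood at 40.01 in DKO library 3 and Mical1, an actin oxidase gene downstream of plexins, at 615.1 in DKO library 2. Efna2 stood at 11.6 in VavCre library 2 and Efna3 at 18.0 in DKO library 3.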

How the results depend on the processing

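Sema4b, Sema6b, Sema4d, Plxna4 and Cdk19 kept direction and call in every alternative that gave a value; Plxna4, as a low gene, has none under the filter of 50. The count of family members called higher was 1 in place of 3 without a filter, without trend and robust, with the replicate block and with DKO libraries averaged in pairs, and 1 to 4 when single libraries were left out; members called lower were 3 to 5 when single libraries were left out. Pathway genes called higher were 11 in place of 18 with DKO pairs averaged. Calls over all genes moved as well. In place of 2671 higher there were 2277 to 2616 with single libraries left out and 1903 to 3038 in the other alternatives. In place of 2773 lower there were 2392 to 2717 with single libraries left out and 2247 to 2891 in the other alternatives. The cause of these shifts was not tested. Cdk8 lost its call at log2 -0.35 without a filter, without trend and robust and with the replicate block, at -0.27 under quantile normalization and at -0.32 without VavCre libraries 1 and 4 (chosen after seeing the data), and also without DKO library 2, 3 or 4 or VavCre library 1, 2 or 4, which makes 11 of 19 alternatives (adjusted p up to 0.148); it ran from -0.46 to -0.28 with single libraries left out. Genes near 0 changed sign: Plxnb3, at -0.0045, gave 0.0051 with a pseudocount of 5, 0.13 under quantile normalization, 0.068 with edgeR and 0.073 with DESeq2, and -0.23 to 0.22 with single libraries left out; Sema4c gave 0.026 under quantile normalization and -0.12 to 0.0027, and Plxnb2 -0.21 to 0.034, with single libraries left out.

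Equal replicate numbers did not pair the libraries (correlations of deviations -0.0535 to 0.0316). With the replicate block 1 member was higher and 3 lower, and 14 pathway genes were higher and 20 lower. The block is among the alternatives whose range over all genes is given above. Sema3c, Sema6d, Plxna3 and the 14 members under the filter are limited by depth.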

Other observations

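Guidance genes outside the family were mostly under the low-value filter. Of 40 slits, netrins, ephrins and their receptors, with the plexin-domain genes Plxdc1 and Plxdc2 and the repulsive guidance molecules, 12 were tested, 4 rose and 3 fell (median log2 fold change 0.08), beside 22.9% higher and 23.8% lower among all tested genes. Of the 28 others, 11 had no read in any library. Slit1, a secreted repellent, had 45.6, 60.3, 74.0 and 46.8 normalized counts in DKO libraries 1 to 4, against 4.91, 20.3, 14.4 and 5.79 in VavCre libraries 1 to 4 and rose (log2 2.40, SE 0.44, adjusted p = 0.000836 by limma). Ntn1, which encodes netrin-1, averaged 19.0 ± 1.51 in DKO and 5.67 ± 3.44 in VavCre and rose (adjusted p = 0.0111 by limma; 0.0571 with DKO libraries averaged in pairs), while the netrin receptor gene Unc5a averaged 7.91 ± 1.87 in DKO and 26.0 ± 10.2 in VavCre and fell (adjusted p = 0.0134 by limma). Each of these genes averaged under the filter value of 10 in 1 group, so passing the filter leaned on the group where it is high. Their calls are therefore not independent of the filter.

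Among ephrin receptors, Epha2 averaged 36.2 ± 11.1 in DKO and 171.4 ± 41.6 in VavCre and fell (log2 -2.24, adjusted p = 3.30e-05 by limma), and Ephb6 fell (log2 -2.0, adjusted p = 0.00384 by limma). For Ephb6, 18 alternatives gave a value, and its log2 fold change ran from -2.65 to -1.64 among them. Epha5 averaged 50.9 ± 15.7 in DKO and 11.3 ± 1.43 in VavCre and rose (log2 2.03, adjusted p = 0.000288 by limma). Plxdc1, a membrane protein with a domain also found in plexins but no plexin itself, averaged 1328 ± 79.2 in DKO and 902 ± 56.9 in VavCre and rose (log2 0.56, adjusted p = 9.69e-05 by limma).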
